A study of Rattus norvegicus with 16 samples.

Results

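The injured and the contralateral dorsal root ganglia (DRG) of adult rats were compared within pairs after spared nerve injury (SNI). The 2 sides were 3 Adult Ipsilateral arrays, called injured here, and 3 Adult Contralateral arrays, which together were 6 of the 16 arrays of the series, and an injured and a contralateral array with the same biological replicate number formed a pair. All 6 came from male Sprague-Dawley rats of 2 months of age, and the L4 and L5 ganglia were collected 7 days after surgery, in which the tibial and common peroneal branches of the sciatic nerve were tied and cut and the sural branch was left intact. The contralateral ganglia thus came from operated animals too, with the nerve of that side intact, and the labels name no agent or genetic change. Each adult array carried RNA pooled from 3 animals (6 ganglia). Whether the same animals gave both pools of a pair was not stated, so p-values here measure the spread between pools of tissue. The other 10 arrays were Adult Sham (3 arrays, the same age and strain, nerve exposed and not cut), Young Sham (3), Young Contralateral (2) and Young Ipsilateral (2), from pups operated at 10 days of age. Each young array carried RNA pooled from 4 animals (8 ganglia), also collected 7 days after surgery. The 10 arrays entered only the estimate of the spread, the sham values given beside a gene and the comparison between ages.

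A DRG holds the cell bodies of the sensory neurons of a spinal nerve, each wrapped by satellite glia, together with Schwann cells, fibroblasts, vessels and resident macrophages. When the peripheral axon is cut, the cell body is known to turn on transcription factors, neuropeptides and growth proteins and to turn down part of its channel and transmitter genes, while macrophages around it multiply or arrive from blood. SNI cuts the axons of some neurons of a ganglion and spares others, so the RNA of a whole ganglion mixes both. In such bulk tissue a change in the number of cells of a type and a change in RNA per cell cannot be told apart.

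The values were log2 GC-RMA values, in which the background of each probe is estimated from its GC content, so that a difference of 1 is a factor of 2 and values near 2 lie at the background. Genes of sensory neurons were high on both sides, with Calca, the precursor of CGRP, at 14.59 to 15.01 in all 6 arrays and the heavy neurofilament Nefh at 14.79 to 15.01. Over 15 genes of central nervous tissue the mean was 2.79 to 2.91 on the contralateral side and 2.81 to 3.05 on the injured side, and those of Mobp and Aqp4 lay at 2.63 to 2.94. The spread of each array around the medians of its Affy_IDs (interquartile range of the relative log expression) was 0.09 to 0.23 in these 6 arrays. Among the other arrays, Young Ipsilateral replicate 2 held Mobp and Aqp4 at high levels, given in the closing sections. It entered the estimate of the spread behind every adjusted p of the main fit, and the number passing changed when it was left out. Leaving out Young Ipsilateral replicate 1 instead gave the same number, so that change was not particular to replicate 2.

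Among the differences that passed the test, rises outnumbered falls, while by sign alone lower values were the more common. Of 31042 Affy_IDs tested, 311 passed an adjusted p of 0.05 (1% of all), with 245 higher on the injured side (0.789%) and 66 lower (0.213%). A single gene symbol was listed for 207 of the rises and 43 of the falls, which stood for 187 and 41 genes. All 311 had the same sign in the 3 pairs. Over all Affy_IDs, 5120 (16.5%) were higher on the injured side in the 3 pairs and 10277 (33.1%) were lower. That lean was small in size, since the median difference of all Affy_IDs was 0, -0.07 and -0.04 in pairs 1, 2 and 3. With 1 Affy_ID for each of 14217 genes, 3416 were higher in every pair and 3634 lower. In 299 of the 311 every injured array lay outside the range of the contralateral arrays, against 8.24% of all Affy_IDs with every injured array above and 7.08% with every injured array below. The median log2 difference of the passing rises was 1.56 and that of the passing falls -0.95, and the largest passing fall was 3.70-fold. For 39 of the rises the contralateral mean was below 3, close to background, so the size of those rises is not exact. The number that passed rested on each pair: 177 did without pair 1, 18 without pair 2 and 47 without pair 3, in fits that left 2 pairs.

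**Figure D1:**
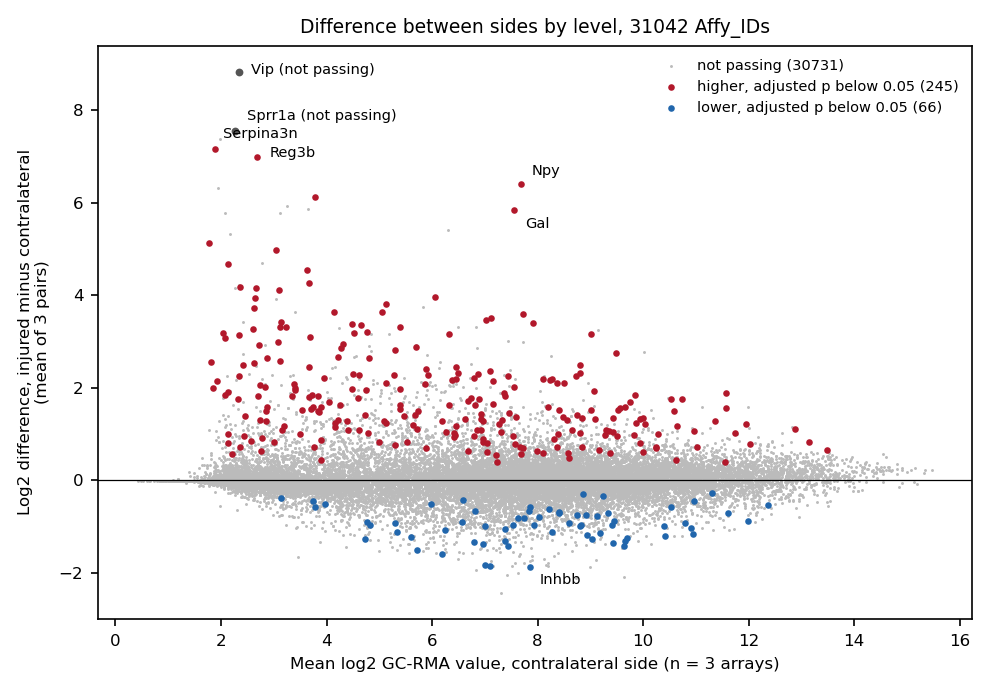
Mean log2 GC-RMA value on the contralateral side (horizontal axis, 3 arrays) against the log2 difference between sides (vertical axis, mean of 3 pairs) for each of 31042 Affy_IDs, with the 245 passing rises in red and the 66 passing falls in blue. The rises reach 7.17 (Serpina3n), the falls stop at -1.89 (Inhbb), and Vip and Sprr1a, both marked, and Csrp3 lie higher than any passing Affy_ID without passing.

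The 5 largest rises that passed were those of a protease inhibitor, a secreted lectin, a pair of neuropeptides and a cytokine. Serpina3n, a serine protease inhibitor of the acute phase, had log2 values of 8.50, 9.63 and 9.02 in the injured arrays and 1.87, 1.87 and 1.91 in the contralateral ones. Every injured array was far above every contralateral array, and the sham mean was 1.86 ± 0.04 (SD, n = 3). Its log2 difference of 7.17 (SE 0.16, adjusted p = 1.2e-07) was the largest among the Affy_IDs that passed. A second serpin, Serpinb2, the type 2 inhibitor of plasminogen activators, had 7.16, 6.90 and 5.52 against 2.32, 2.34 and 2.41, a difference of 4.17 (SE 0.25, adjusted p = 0.000417). The other 11 of the 13 serpins measured did not pass, among them Serpinb6a at -0.01 (adjusted p = 0.992) and Serpinb1a at 0.92 (adjusted p = 0.11). Serpinb1a nevertheless had 12.87 to 13.31 on the injured side and 11.95 to 12.33 on the contralateral side, with no overlap.

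Reg3b, a secreted lectin of the regenerating family, had 9.09, 10.02 and 9.89 in the injured arrays and 2.96, 2.67 and 2.44 in the contralateral arrays. The log2 difference was 6.98 (SE 1.02, adjusted p = 0.0213), and the sham mean was 3.04 ± 0.96. Tslp, an epithelial cytokine that acts on dendritic cells, had 9.28, 10.22 and 10.25 against 3.93, 3.70 and 3.74 (difference 6.13, SE 1.07, adjusted p = 0.0359). Smagp, a small transmembrane glycoprotein of cell contacts, differed by 4.98 (adjusted p = 0.0201), and Pvr, an adhesion receptor of the immunoglobulin family, by 4.25 (adjusted p = 0.0161). In none of these 4 genes did the sides overlap. Sema6a, a membrane semaphorin, had 10.30, 10.77 and 10.83 against 7.08, 6.94 and 7.35 (difference 3.51, SE 0.65, adjusted p = 0.0423), well above background on both sides.

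Neuropeptides known from cut sensory neurons held several large rises. Of 12 listed, 5 rose, none fell, and the median log2 difference was 2.03 against -0.02 over all 14217 genes measured, of which 165 rose (1.16%) and 31 fell (0.218%). This list and those below were chosen with earlier results of these data known, so their shares are a description only. Npy, neuropeptide Y, had 13.67, 14.33 and 14.29 in the injured arrays and 6.14, 8.09 and 8.83 in the contralateral arrays. The injured arrays were within 0.66 of each other, whereas the contralateral arrays were spread over 2.69, and the difference between sides was 6.41 (SE 1.19, adjusted p = 0.0442). Gal, the precursor of galanin, had 12.93, 13.65 and 13.64 against 7.43, 7.74 and 7.50, a difference of 5.85 (SE 1.10, adjusted p = 0.0457). For both peptides the sham mean lay between the sides, at 9.70 ± 0.78 for Npy and 9.35 ± 0.40 for Gal.

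Vgf, a precursor of secreted neuronal peptides, rose by 2.24 (SE 0.30, adjusted p = 0.0169). Adcyap1, which encodes PACAP, rose by 1.92 (SE 0.19, adjusted p = 0.00722), with 10.91, 11.02 and 11.01 on the injured side and 9.22, 8.88 and 9.07 on the other. Ucn, the stress peptide urocortin, had 3.94, 3.92 and 4.32 against 1.90, 1.92 and 1.96 (difference 2.13, adjusted p = 0.0161), from a contralateral level at background. Peptides carried by intact nociceptors had small differences, more often downward. Of 14 nociceptor peptide and opioid genes none passed, and the median was -0.12. In every pair 8 of them were lower and none higher, against 3634 of 14217 genes lower. Their mean was 6.55, 6.54 and 6.37 on the injured side and 6.78, 6.85 and 6.67 on the contralateral side. Below a log2 value of 4 in all 6 arrays lay 6 of the 14. Calca differed by -0.16 (adjusted p = 0.855) and Tac1, the precursor of substance P, by -0.08 (adjusted p = 0.91), and in both the 2 sides overlapped.

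**Figure D2:**
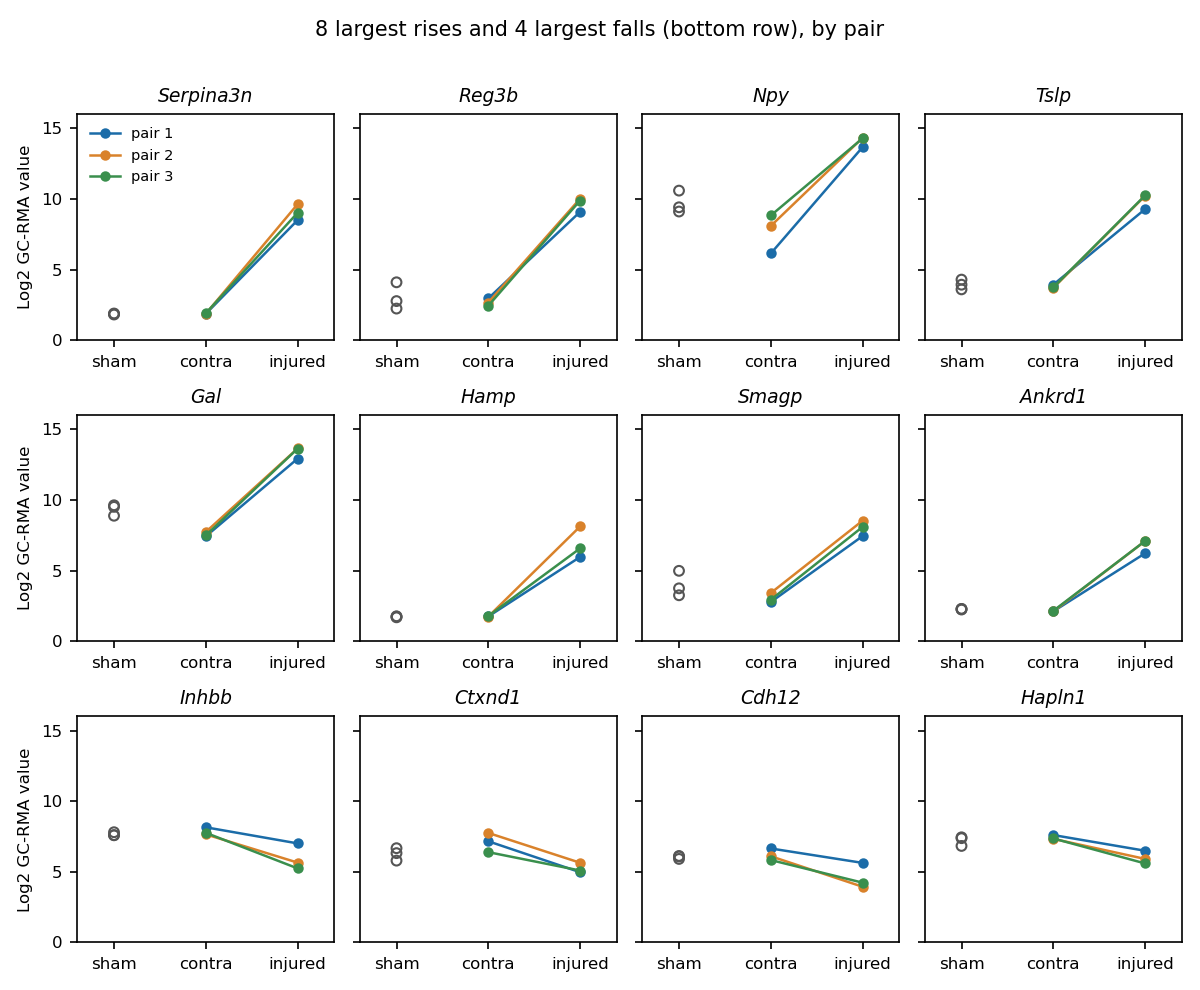
Log2 GC-RMA values (vertical axis) of the 8 largest passing rises and the 4 largest passing falls, with contralateral and injured arrays of a pair joined by a coloured line and the 3 adult sham arrays as open circles. In each of the 12 genes all 3 lines run the same way, and the contralateral arrays of Npy are spread from 6.14 to 8.83.

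Growth and regeneration proteins rose in 7 of 27 cases, with none lower and a median of 0.81. Beside Reg3b these were Ecel1, a neuronal endopeptidase induced by injury (3.73, adjusted p = 0.037), the adhesion protein Flrt3 (3.60, adjusted p = 0.0304), and Gadd45a, a stress protein of DNA repair (2.74, adjusted p = 0.0488). Cacna2d1, the calcium channel subunit that binds gabapentin, had 11.49, 12.14 and 11.37 against 9.98, 10.02 and 9.51, a difference of 1.83 (SE 0.33, adjusted p = 0.0407). Gap43, a growth cone protein, had 13.93, 14.04 and 13.93 against 12.83, 12.98 and 12.80, a difference of 1.10 (SE 0.17, adjusted p = 0.0252), while another of its Affy_IDs did not pass at -0.19. Tubb2b, a tubulin of growing axons, rose by 0.81 (adjusted p = 0.0496). Cacna2d1 was also the only 1 of 18 calcium and HCN channel genes to pass, and Gap43 the only 1 of 14 genes of repair Schwann cells. Among the members that did not pass, Stmn2 was at 0.49 (adjusted p = 0.257) and Tubb3 at 0.51 (adjusted p = 0.21), both higher on the injured side in every pair.

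Of 21 transcription factors linked to regeneration 2 rose. Sox11, a factor of developing and regrowing neurons, had 6.96, 7.12 and 6.39 against 2.71, 2.66 and 2.62 (difference 4.16, SE 0.63, adjusted p = 0.0233). Crem, a modulator of cAMP-responsive transcription, had 10.54, 10.29 and 10.40 against 9.36, 9.51 and 9.20 (difference 1.05, SE 0.16, adjusted p = 0.0233), and of its 6 Affy_IDs 5 passed. Jun (1.77, adjusted p = 0.166) and Smad1 (1.32, adjusted p = 0.0527) did not pass, although for both the injured arrays were all above the contralateral arrays. Ankrd1, a nuclear cofactor known from stretched muscle, rose by 4.68 on the Affy_ID that passed (adjusted p = 0.0164), and another of its Affy_IDs was at 6.32 (adjusted p = 0.0563).

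Some of the largest differences on the array did not pass, and their genes, apart from Vip, were named after their values had been seen. Vip, vasoactive intestinal peptide, had 11.29, 11.30 and 10.93 in the injured arrays and 2.54, 1.89 and 2.59 in the contralateral arrays. Its log2 difference of 8.83 was larger than that of any Affy_ID that passed, yet the SE was 1.72 and the adjusted p 0.055. Sprr1a, a cornified envelope protein induced in cut neurons, had 9.58, 9.97 and 9.89 against 2.22, 2.27 and 2.30 (difference 7.55, SE 1.91, adjusted p = 0.128). Atf3, a transcription factor used as a marker of axotomy, had 11.60, 11.81 and 11.72 against 6.43, 6.77 and 5.70 (difference 5.41, SE 1.15, adjusted p = 0.0756). Csrp3, a LIM protein of muscle, differed by 7.37 (adjusted p = 0.0993), the arginine-degrading enzyme Arg1 by 5.78 (adjusted p = 0.139), and the phosphodiesterase subunit Pde6b by 4.70 (adjusted p = 0.0522).

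The SE of the main fit pools the spread within all groups, and these genes varied widely among the young arrays. For Vip the 3 Young Sham arrays had 10.03, 11.52 and 8.09 and the 2 Young Contralateral arrays 9.28 and 1.87. For Sprr1a they had 8.24, 9.92 and 3.50, and 7.56 and 2.22. When the 6 adult arrays of the 2 sides were fitted alone, with the pair, Vip passed with an adjusted p of 0.0226, Sprr1a with 0.0126, Csrp3 with 0.0225, Arg1 with 0.0226, Atf3 with 0.0304 and Pde6b with 0.0126. That fit called 458 Affy_IDs, of which 129 were among the 311. Serpina3n passed there at 0.028, Npy at 0.0437 and Gal at 0.0215, and Hamp missed at 0.0583. Pooling works the other way for genes at background with little spread in the other groups. Their SE can be smaller than the pairs alone would give, as in Serpina3n (SE 0.16, SD of the pair differences 0.57) and Hamp (0.38 and 1.12). The low adjusted p of such genes in the main fit thus does not measure agreement between pairs alone.

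**Figure D3:**
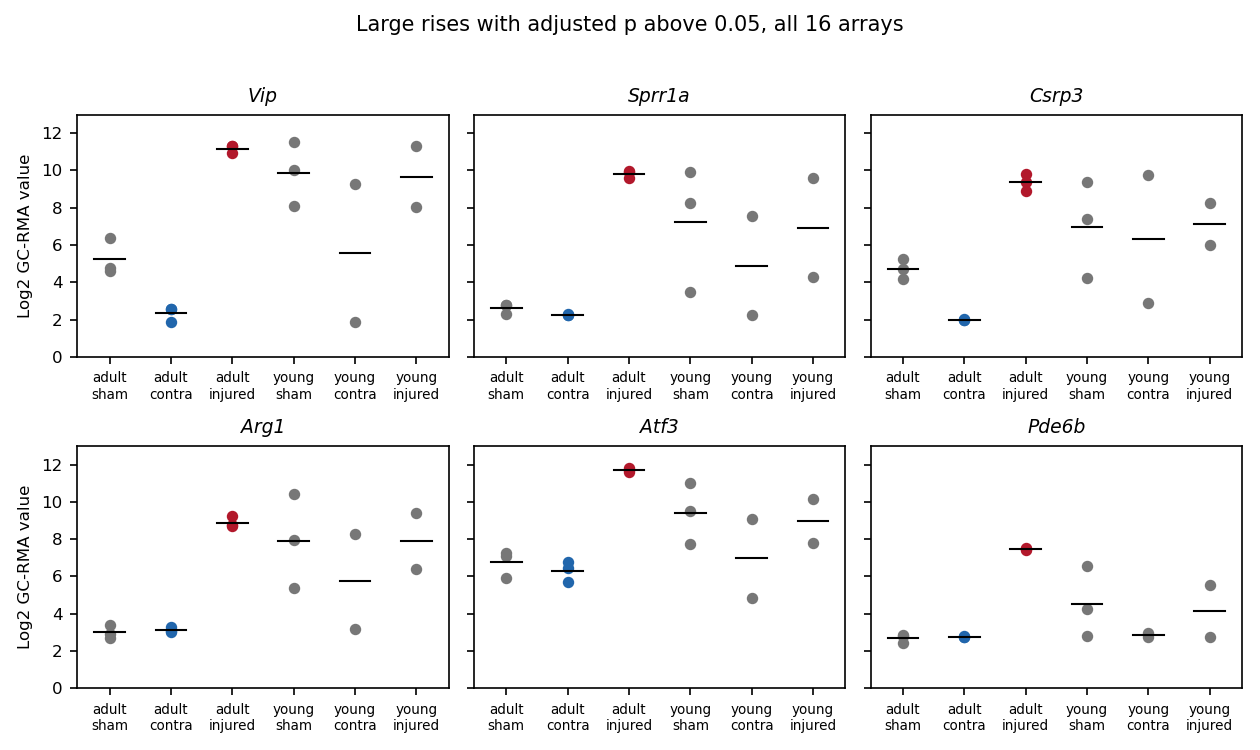
Log2 GC-RMA values (vertical axis) of 6 genes in all 16 arrays by group (horizontal axis), each point 1 array and each bar a group mean, with the adult injured arrays in red and the adult contralateral arrays in blue. Red and blue points are far apart in each gene, with Vip at 10.93 to 11.30 against 1.89 to 2.59, while the young groups, shams included, are widely spread.

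Among large differences, counted by size with no test, rises again outnumbered falls. The log2 difference was above 1 in every pair for 381 Affy_IDs (1.23%) and below -1 in every pair for 43 (0.139%). Of those 381 rises 152 also passed the test and 229 did not, and of the 43 falls 9 passed and 34 did not.

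The macrophage list held the most rises by number, while neuropeptides had the higher share and median. Both lists were chosen with earlier results of these data known, so the ranking is not independent of them. Of 30 macrophage genes measured, 12 rose and none fell, with a median of 1.99 (165 of all 14217 genes rose, 1.16%), and in 17 the difference was above 1 in every pair. Their mean level was 6.98, 7.45 and 7.38 in the injured arrays, 5.42, 5.55 and 5.44 in the contralateral arrays and 6.12, 5.67 and 6.24 in sham, so that the contralateral arrays were the lowest of the adult groups. Clec7a, the beta-glucan receptor dectin-1, had 7.87, 8.24 and 8.37 against 3.88, 3.60 and 3.40, a difference of 4.53 (SE 0.49, adjusted p = 0.00942). Ms4a6a, a membrane protein of myeloid cells, had 5.77, 5.05 and 5.66 against 2.33, 2.33 and 2.39 (difference 3.14, SE 0.16, adjusted p = 0.000141). Another Affy_ID of Ms4a6a lay at background on both sides and did not pass, at 0.007 (adjusted p = 0.971). The lysosomal marker Cd68 rose by 2.56 (adjusted p = 0.0203) and Lyz2, macrophage lysozyme, by 1.89 (adjusted p = 0.0252). Mrc1, the mannose receptor, rose by 2.19 (adjusted p = 0.0496), and C1qb, which is also on the complement list, by 3.81.

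Other passing members of the macrophage list include receptors for the Fc part of antibodies. Fcgr3a, a low-affinity receptor, had 5.06, 6.24 and 4.35 against 2.02, 2.09 and 2.02 (difference 3.17, adjusted p = 0.00294). Fcgr2b rose by 2.99 (adjusted p = 0.0339), the high-affinity Fcgr1a by 2.94 (adjusted p = 0.0274), the shared gamma chain Fcer1g by 2.19 (adjusted p = 0.0346) and the adaptor Tyrobp by 1.82 (adjusted p = 0.0182). Adgre1, the antigen F4/80, rose by 2.09 (adjusted p = 0.0422). Csf1r, the receptor for the macrophage growth factor, had 9.90, 10.71 and 10.55 against 8.24, 8.51 and 7.63 and missed the threshold (difference 2.26, SE 0.46, adjusted p = 0.0659). Cathepsin S, Ctss, was at 2.11 (adjusted p = 0.181) and Spp1, osteopontin, at 0.60 (adjusted p = 0.423).

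The ligand of that receptor, Csf1, was among the large rises on 1 of its Affy_IDs, with 6.91, 7.56 and 7.18 against 2.87, 3.47 and 2.96. Its differences in the 3 pairs were nearly equal (SD 0.09), and their mean was 4.12 (SE 0.57, adjusted p = 0.0186). Of its other Affy_IDs another passed at 2.27, and 2 did not, at 1.26 (adjusted p = 0.489) and -0.01 (adjusted p = 0.964).

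Of 16 genes of MHC class II, which presents antigen to helper T cells, 2 rose and 14 did not pass. The median was 1.68, and 12 of the 16 were higher in every pair, against 3416 of 14217 genes. The mean of these class II genes was 7.11 to 7.83 on the injured side, 5.79 to 6.03 on the contralateral side and 6.16 to 6.62 in sham. Macrophage genes moved with them, at the levels given above, and their part in this was not tested. RT1-Ba, a class II alpha chain, had 8.82, 10.53 and 10.69 on 1 Affy_ID against 5.71, 6.11 and 6.36 (difference 3.95, SE 0.66, adjusted p = 0.0311). Another Affy_ID of RT1-Ba passed at 3.40, and 2 lay at background on both sides. RT1-DMb, which helps to load peptides, had 7.47, 7.89 and 8.61 against 4.55, 4.82 and 4.57 (difference 3.34, adjusted p = 0.033). RT1-Da had 11.80, 12.55 and 12.84 against 9.04, 9.20 and 9.21, and Cd74, the invariant chain, 12.06, 12.97 and 13.30 against 9.93, 10.17 and 9.93. Neither passed (3.25, adjusted p = 0.0658, and 2.77, adjusted p = 0.0693), though their sides did not overlap. Pair 1 had the smallest class II difference, with a median of 1.06 against 1.93 and 2.06 in pairs 2 and 3.

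Of 17 complement genes 3 rose and none fell (median 1.08). The list mean was 8.00, 8.65 and 8.59 in the injured arrays, 6.88, 7.30 and 6.96 in the contralateral arrays and 7.80, 7.27 and 7.92 in sham. C3, the central component, had 5.80, 7.16 and 6.71 against 2.67, 4.50 and 2.56 (difference 3.31, SE 0.56, adjusted p = 0.033). C1qb, a chain of the first component, had 7.65, 9.18 and 9.95 against 4.47, 5.42 and 5.46 (difference 3.81, adjusted p = 0.0456), and C1qa and C1qc, its partner chains, were at 2.85 (adjusted p = 0.0875) and 3.32 (adjusted p = 0.0726). C5ar1, the receptor for C5a, rose by 2.57 (adjusted p = 0.0423), but its sham mean of 4.74 lay within the range of the injured arrays. Clu, a secreted chaperone that inhibits complement, was at 0.07 (adjusted p = 0.838), with overlapping sides.

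Of 46 chemokines, cytokines and their receptors 6 rose, none fell and the median was 0.14, with 22 members below a log2 value of 4 in all 6 arrays. Beside Tslp these were Cxcl13, a chemokine for B lymphocytes, Il6, Cxcl16, Ccl2, which attracts monocytes, and Ccl21. Cxcl13 had 7.56, 8.62 and 7.13 against 4.63, 4.91 and 2.87, a difference of 3.63 (SE 0.27, adjusted p = 0.00119). Its sham mean of 6.00 ± 0.52 lay above every contralateral array and below every injured array. Il6, a cytokine that cut sensory neurons make, had 5.12, 5.67 and 3.87 against 2.37, 2.39 and 2.47 (difference 2.48, SE 0.26, adjusted p = 0.00942). Ccl2 was well above background on both sides, with 11.00, 11.50 and 10.88 against 9.61, 9.78 and 9.31, and rose by 1.56 (SE 0.22, adjusted p = 0.0203). Cxcl16 rose by 1.64 (adjusted p = 0.0144). Ccl21 had 4.23, 6.46 and 5.69 against 3.26, 3.43 and 3.45 (difference 2.08, adjusted p = 0.0292), but its sham mean of 6.18 lay within the range of the injured arrays.

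None of 19 T and NK lymphocyte genes, 5 B lymphocyte genes or 13 neutrophil and mast cell genes passed, with medians of -0.05, -0.04 and -0.03. The mean of the T and NK list was 3.26 to 3.27 on the injured side and 3.11 to 3.21 on the contralateral side, and 15 of its 19 genes were below 4 in all 6 arrays, where a change could hardly be seen. Gzmb, a granzyme of cytotoxic cells, had 6.10, 6.57 and 6.58 against 2.24, 2.25 and 2.31 on 1 Affy_ID and did not pass (difference 4.15, SE 1.11, adjusted p = 0.15), and was at 1.55 on the other (adjusted p = 0.386). It was named after its values were seen. Neutrophil calprotectin, S100a8 and S100a9, overlapped between the sides. Interferon response genes had a median of 0.56 with none of 22 passing, and the pairs disagreed, with 0.93 in pair 1, 0.02 in pair 2 and 0.73 in pair 3. Ifitm3, a membrane protein that blocks viral entry, came closest among those highest in level (1.13, adjusted p = 0.0656).

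Matrix proteases and their inhibitors rose in 3 of 25 cases. Mmp16, a membrane-bound protease, had 8.07, 8.14 and 8.11 against 5.36, 5.11 and 5.40 (difference 2.82, SE 0.35, adjusted p = 0.0137). Timp1, an inhibitor of these proteases, had 11.43, 12.39 and 12.42 against 10.35, 10.99 and 10.44 (difference 1.49, SE 0.24, adjusted p = 0.0274). Mmp3, stromelysin, rose by 1.85 from background (adjusted p = 0.0233), and its injured arrays were uneven, at 3.26, 5.08 and 3.40. Timp2 and Timp3 did not pass, at 0.25 and 0.09.

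Fibroblast and matrix genes shared a direction without passing. Of 25 measured none passed, but 23 were higher on the injured side in every pair, against 3416 of 14217 genes, and the median was 0.88. Their mean level was 9.85, 10.13 and 10.61 in the injured arrays and 8.80, 9.41 and 9.56 in the contralateral arrays. In sham it was 9.56, 9.16 and 10.66, so a rise over sham was not clear. Col3a1 had 13.27, 13.56 and 14.05 against 12.24, 13.07 and 13.10 (difference 0.82, adjusted p = 0.41), and Sparc was at 0.58 (adjusted p = 0.434). Both lists of glia had medians that stayed near 0 or varied between pairs. Of 13 satellite glia genes none passed (median 0.16), with Apoe at 0.16 (adjusted p = 0.72). In 1 of the 13 the difference was above 1 in every pair. Gfap, named after its values were seen, had 8.02, 8.32 and 7.88 against 6.16, 6.16 and 6.19. It did not pass (difference 1.90, SE 1.71, adjusted p = 0.716). Myelin genes of Schwann cells had medians of 0.44 in pair 1, -0.32 in pair 2 and 0.85 in pair 3, and none of 14 passed. Mbp, myelin basic protein, had 14.41, 14.62 and 15.04 against 14.18, 14.59 and 14.45. Endothelial and mural genes (0 of 17, median 0.54), cell cycle genes (0 of 30, median -0.01) and muscle, blood and fat genes (0 of 13, median -0.01) gave no passing member either. The endothelial and mural list had a mean of 6.92 to 6.95 on the injured side, 6.36 to 6.51 on the contralateral side and 6.30 to 7.55 in sham.

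Other single rises came from iron and hyaluronan biology. Hamp, the iron hormone hepcidin, had 5.97, 8.13 and 6.58 in the injured arrays and 1.76, 1.75 and 1.79 in the contralateral arrays, a difference of 5.13 (SE 0.38, adjusted p = 0.00119). The contralateral and sham values (sham mean 1.74 ± 0.04) lay at background, and the pairs ranged over 2.17. It was the only one of 11 iron handling genes to pass, with the transferrin receptor Tfrc at 0.03 (adjusted p = 0.956) and ceruloplasmin, Cp, at 1.49 (adjusted p = 0.228). Tnfaip6, a hyaluronan-binding protein made in inflammation, had 6.15, 6.85 and 6.33 against 3.26, 3.05 and 3.06 (difference 3.32, SE 0.28, adjusted p = 0.00294). Another of its Affy_IDs lay at background on both sides and did not pass, at -0.05 (adjusted p = 0.708). Also among the 25 largest rises were Ms4a6bl1 (3.42, adjusted p = 0.0434), Kif22 (3.31, adjusted p = 0.00942) and LOC100912188 (3.27, adjusted p = 0.0351). Another Affy_ID of Ms4a6bl1 did not pass, at -0.16 (adjusted p = 0.683).

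The promoters of the 25 largest rises were searched for the letters bound by AP-1 (TGACTCA or TGAGTCA), to which Jun and Atf3 belong, and by CREB and Crem (the palindrome TGACGTCA), on both strands and from 250 bases before to 50 after the start. RefSeq promoters (GRCr8) were given for 22 of the 25 genes, 27 promoters in all. The AP-1 letters were in 2 of them (7.41%) against 4.63% of 33469 promoters, and the CRE letters in 1 (3.7%) against 1.83%. The search was also run over all passing rises named by rule, with 62 promoters of 53 genes. There the AP-1 letters were in 4 (6.45%) and the CRE letters in 6 (9.68%), those of Crem, Il6, RT1-Ba, Ucn and Vgf. Neither set of letters contains the other, and these counts are a description only. For the 25 largest rises, the stretches that hold the letters are shown 5′ to 3′ on the strand of the gene, with the matched letters in capitals. Hamp, Tnfaip6 and RT1-Ba are rises described above.
Hamp, chr1:95300332-95300418, minus strand, AP-1 letters from 107 to 101 bases before the start: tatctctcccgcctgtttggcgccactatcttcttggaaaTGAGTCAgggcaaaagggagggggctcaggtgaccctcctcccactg
Tnfaip6, chr3:56911166-56911252, plus strand, AP-1 letters from 192 to 186 bases before the start: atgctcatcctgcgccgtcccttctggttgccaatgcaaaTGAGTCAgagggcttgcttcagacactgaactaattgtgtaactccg
RT1-Ba, chr20:4576948-4577035, plus strand, CRE letters from 69 to 62 bases before the start: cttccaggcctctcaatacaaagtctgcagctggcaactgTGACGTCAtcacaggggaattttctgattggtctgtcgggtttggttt

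The falls were smaller, and they rested on the arrays that set the spread. When the 6 arrays of the 2 sides were fitted alone, with the pair, 3 of the 25 largest falls passed (Rgs6, Hapln4 and Kcnip4) and 22 did not, against 22 of the 25 largest rises that passed. None of the 25 falls passed without pair 3, 1 did without pair 2 and 9 without pair 1. Inhbb, the beta B subunit of activin, had 7.01, 5.65 and 5.24 in the injured arrays and 8.15, 7.65 and 7.76 in the contralateral arrays, with a sham mean of 7.66 ± 0.12. No injured array reached the contralateral range, and the difference was -1.89 (SE 0.23, adjusted p = 0.0137, and 0.11 in the 6 arrays). Ctxnd1, a cortexin domain protein, had 4.97, 5.64 and 5.09 against 7.16, 7.75 and 6.39 (difference -1.87, SE 0.28, adjusted p = 0.0233, and 0.0721 in the 6 arrays). Cdh12, a neuronal cadherin, had 5.63, 3.94 and 4.23 against 6.65, 6.10 and 5.83 (difference -1.59, SE 0.27, adjusted p = 0.0339).

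A pair of link proteins of hyaluronan matrix fell, Hapln1 with a difference of -1.43 (adjusted p = 0.0336) and Hapln4 with -1.27 (adjusted p = 0.0196), though other Affy_IDs of both did not pass. Regulators of G protein signalling moved both ways. Rgs6, which acts with Rgs7bp in neurons, had a difference of -1.35 (SE 0.20, adjusted p = 0.0219) with no overlap, and Rgs7bp was lower by a difference of -1.43 (adjusted p = 0.0422). Rgs2 rose by 1.35 (adjusted p = 0.033) and Rgs18, known from blood and myeloid cells, by 1.94 (adjusted p = 0.0326), so that of 36 genes of this signalling list 2 rose and 1 fell.

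Further genes among the 25 largest falls were these. Dnm3, a dynamin, was at -1.35 (adjusted p = 0.0287), the secretory GTPase Rab27b at -1.32 (adjusted p = 0.0254), the sorting receptor Sorl1 at -1.21 (adjusted p = 0.0423) and Pacsin1, which binds dynamin, at -1.15 (adjusted p = 0.0376). Of the 8 Affy_IDs of Sorl1 3 passed, all lower, and in Pacsin1 the sides overlapped, at 7.24 to 8.87 against 8.84 to 9.50. Other Affy_IDs of Dnm3 (-0.56, adjusted p = 0.567), Rab27b (-1.24, adjusted p = 0.128) and Pacsin1 (-0.68, adjusted p = 0.53) did not pass. Lin7b, a scaffold of presynaptic and junction complexes, had 7.75, 8.17 and 7.53 against 8.55, 9.22 and 8.66 (difference -0.99, SE 0.12, adjusted p = 0.0137, and 0.0511 in the 6 arrays). Within the list of 26 vesicle and exocytosis genes that holds Lin7b, whose median was -0.27, the only other passing member went up: the syntaxin Stx1a had 8.35, 8.37 and 8.43 against 7.63, 7.63 and 7.75 (difference 0.71, SE 0.11, adjusted p = 0.0252). Another Affy_ID of Stx1a did not pass, at 0.49 (adjusted p = 0.266). Snap25 and Vamp1, which form the same fusion complex, were at -0.16 (adjusted p = 0.725) and -0.25 (adjusted p = 0.576). Also among the 25 falls were Fam13a (-1.28), Usp8 (-1.06), Esrrg (-0.99), Dnajb14 (-0.98), Kazn (-0.98), Slitrk1 (-0.98), Ankrd55 (-0.92) and Inpp4b (-0.92). Nsun4 (-0.90) had the lowest adjusted p of the 25, 0.00942. Other Affy_IDs of Usp8, Esrrg, Dnajb14, Kazn, Slitrk1, Inpp4b and Nsun4 did not pass.

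Potassium channel genes were lower as a group by sign, but 1 of 49 passed. The median was -0.36 and 33 were lower in every pair, against 3634 of 14217 genes, and the pair medians were -0.42, -0.28 and -0.37. Kcnip4, a subunit that modulates A-type channels, had 10.00, 10.07 and 9.53 against 10.83, 11.02 and 10.55 (difference -0.93, SE 0.16, adjusted p = 0.0339). Another Affy_ID of Kcnip4 did not pass, at -1.29 (adjusted p = 0.513). Kcna2 had 12.54, 12.22 and 12.07 against 12.83, 13.06 and 12.78 and did not pass (difference -0.61, adjusted p = 0.0785), nor did Kcna1 (-0.36, adjusted p = 0.336) or Kcnab1 (-0.64, adjusted p = 0.577). Kcnj11, the pore of the ATP-sensitive channel, was among the 25 largest falls on 1 Affy_ID, at -0.97 (adjusted p = 0.0252), while 2 others were at 0.14 and -0.70 and did not pass.

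Among other channels and receptors, Asic2, an acid-sensing subunit, was lower by a difference of -0.99 on 1 Affy_ID (adjusted p = 0.0398) and at -0.74 on another (adjusted p = 0.124). None of 12 sodium channel genes passed (median -0.15), including Scn9a at -0.24 and Scn11a at -0.61. In every pair 2 of the 12 were higher and 6 lower, against 3416 and 3634 of 14217 genes. Scn3a, named after its values were seen, had 7.39, 7.30 and 6.89 against 4.66, 4.46 and 4.47 (difference 2.66, SE 0.76, adjusted p = 0.179). None of 21 TRP, acid-sensing and P2X channel genes passed either, taking for Asic2 its brighter Affy_ID. Trpv1 was at -0.83 (adjusted p = 0.625) and P2rx3 at 0.14 (adjusted p = 0.843). Of 52 transmitter and trophic factor receptors 2 rose: Gfra1, the receptor for GDNF, had 11.03, 11.40 and 11.29 against 9.54, 9.85 and 9.57 (difference 1.59, SE 0.21, adjusted p = 0.018), and P2ry14, a receptor for UDP-sugars, rose by 1.09 (adjusted p = 0.0193). Ret, the partner of Gfra1, was at -0.08 (adjusted p = 0.92), and 27 of the 52 were lower in every pair, against 3634 of 14217 genes.

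Transcription factors that define sensory neurons had the lowest median of all 39 lists, -0.43, with 11 of 18 lower in every pair (3634 of all 14217 genes were), none higher in every pair and none passing. Drgx was at -0.67 (adjusted p = 0.543) and Etv1 at -0.51 (adjusted p = 0.579). Structural genes of the neuron lay close to 0, with Nefl, Nefm and Nefh at -0.08, -0.04 and -0.06 and overlapping sides, and none of 8 neurofilament genes passed. Over 14 sensory neuron markers the mean was 11.40, 11.60 and 11.29 in the injured arrays and 11.56, 11.82 and 11.61 in the contralateral arrays, lower in each pair.

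Of 19 ribosomal protein genes none passed, yet 18 were higher in every pair, against 3416 of 14217 genes, and the median was 0.46, with Rpl3 at 14.05, 14.29 and 14.36 against 13.79, 14.19 and 13.85. The mean of that list was 12.57 to 12.97 on the injured side, 12.25 to 12.72 on the contralateral side and 12.43 to 12.82 in sham. Respiratory chain subunits (0 of 28, median 0.08), cholesterol synthesis (0 of 17, median 0.15) and chaperones of the endoplasmic reticulum and heat shock (0 of 22, median 0.25) had no passing member. Among 25 genes of apoptosis and stress, Gadd45a and the cell cycle inhibitor Cdkn1a rose and Map2k6 fell. Cdkn1a had 8.43, 8.34 and 8.99 against 5.13, 5.41 and 6.57 on 1 Affy_ID (difference 2.88, adjusted p = 0.0442), and another was at 0.33 (adjusted p = 0.846). Map2k6, a kinase that activates p38, had 7.88, 7.31 and 7.79 against 8.65, 8.64 and 8.50 (difference -0.94, SE 0.14, adjusted p = 0.0233). Grem1, an inhibitor of BMPs, rose by 1.53 (adjusted p = 0.0275), the only member of 27 activin, BMP and TGF-beta genes to pass beside Inhbb.

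**Figure D4:**
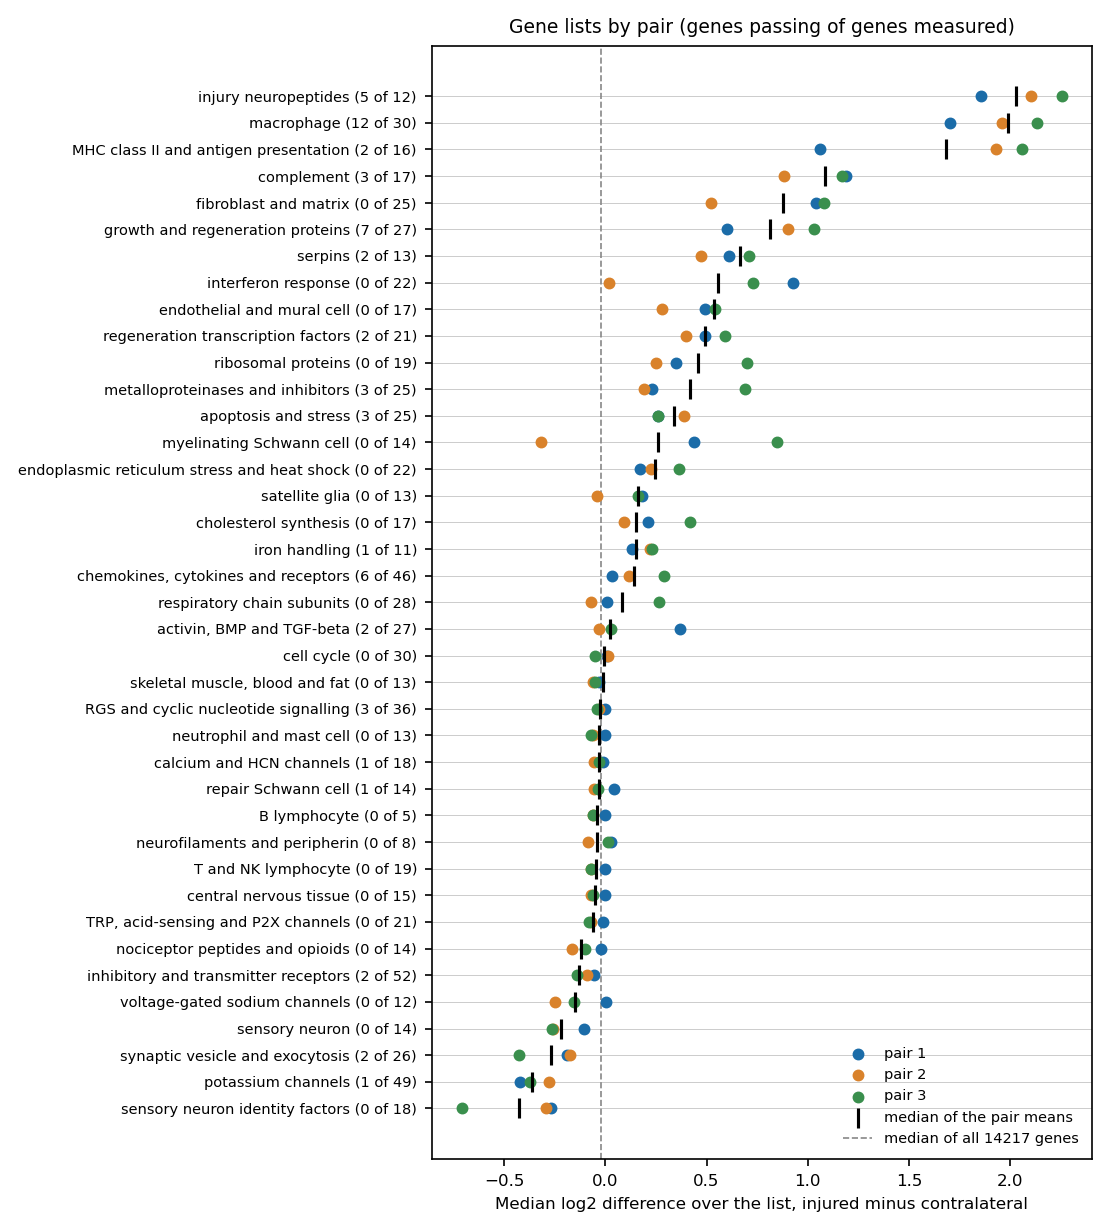
Median log2 difference between sides (horizontal axis) over the genes of each of 39 lists (vertical axis, with the number passing of those measured), each coloured point 1 pair, each black mark the median of the pair means and the dashed line the median of all genes at -0.02. Injury neuropeptides (2.03) and macrophage genes (1.99) lie farthest right in every pair, and the pairs differ in the sign of the myelin list.

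A further set of genes was that measured by PCR. It was chosen on these same arrays, so it is not independent evidence. The probe annotation used here named 15 of these genes, and all but Clic1 passed on at least 1 Affy_ID. Beside those described above, Maoa, an enzyme that degrades monoamines, had 11.97, 12.06 and 12.07 against 10.92, 11.19 and 10.81 (difference 1.06, SE 0.13, adjusted p = 0.0137). Itpkc, an inositol phosphate kinase, rose by 1.17 (adjusted p = 0.0298), and Tlr4, the endotoxin receptor, by 0.81 from a background level (adjusted p = 0.0138). Clic1, a chloride intracellular channel protein, was at 1.02 (adjusted p = 0.0606), with no overlap between the sides.

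The 3 pairs agreed in the main direction and differed in the number of falls. Across all Affy_IDs the differences of 2 pairs correlated with r of 0.658 to 0.671, over features that are not independent and within the same set of arrays. Differences above 1 were seen for 726, 864 and 1041 Affy_IDs in pairs 1, 2 and 3, and differences below -1 for 326, 312 and 993. Of the 993 in pair 3, 722 (72.7%) were past -1 in neither of the other pairs, although 772 (77.7%) had the same sign in both. The lists of vesicle genes and identity factors were lowest in pair 3 too, at -0.43 and -0.71. The interquartile range of all differences was 0.17, 0.23 and 0.32. Taking differences within pairs lowered the spread: the SD of the pair differences was smaller than that of unpaired arrays for 80.8% of Affy_IDs (median 0.146 against 0.217).

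**Figure D5:**
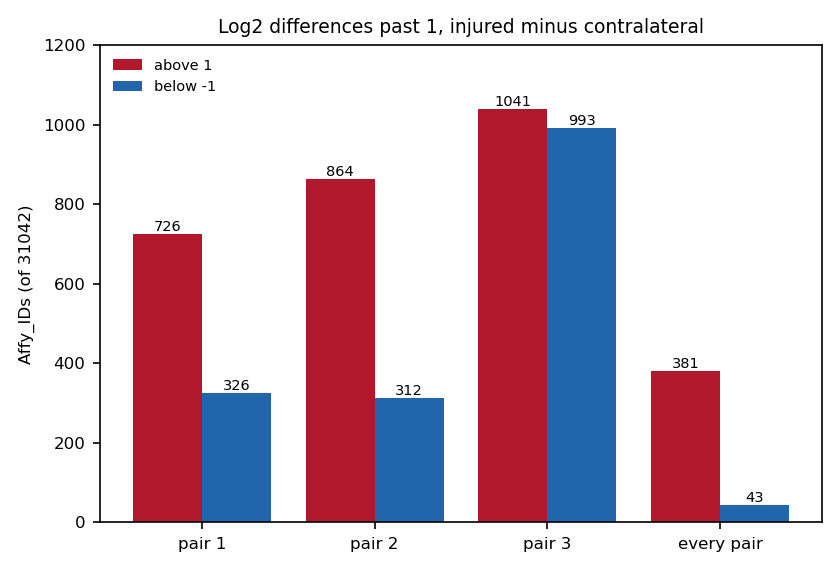
Number of Affy_IDs (vertical axis, of 31042) with a log2 difference between sides above 1 (red) or below -1 (blue) in each pair and in every pair. Pair 3 has 993 below -1 against 326 and 312 in the others, and 43 are below -1 in every pair.

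The 10 genes with the widest range between pairs among those that passed were all higher on the injured side in every pair. Syne3, a nuclear envelope protein, had 3.25, 5.31 and 5.80 in the injured arrays against 2.72, 2.74 and 2.76, and Cyp4b1, a cytochrome, 3.05, 5.17 and 3.93 against 2.13, 2.13 and 2.17. In both the contralateral arrays were almost equal and at background, and the range came from the injured side. Aldh1a2, which makes retinoic acid, had 3.75, 5.36 and 4.43 against 2.67, 2.55 and 2.88, with a sham mean of 3.75 ± 0.01. C5ar1, Hamp, Il6, Fcgr3a, Mmp3, Ccl21 and Npy made up the rest. Injured array 2 was the highest of the 3 in all of them but Syne3, while in Npy the range lay on the contralateral side.

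The same difference between sides was set against that of young rats, in which both sides came from 2 pools each. The adult difference minus the young difference passed for 8 of 31042 Affy_IDs (0.0258%), 5 of them with the larger side difference in adults: Serpina3n, Ms4a6a, Serpinb2, Hamp and Cxcl13. Serpina3n, for example, had 1.85 and 1.87 in the injured and 1.83 and 1.87 in the contralateral young arrays. For the neuropeptides and Atf3 the difference between ages did not pass, with Vip at 4.08 in young rats against 8.83 in adults (adjusted p = 0.788).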

How the data were processed

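Messenger RNA of pooled L4 and L5 DRG was measured on 16 one-colour Affymetrix rat arrays. The authors corrected and summarised the scans with GC-RMA and deposited log2 values, in which 2 outlying arrays had already been left out per the study's methods. Neither the versions of their GC-RMA and limma nor a genome build were given in the sources used here. Precision is limited by the number of arrays and, for dim genes, by the background.

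After 57 control Affy_IDs were left out, 31042 were fitted with limma 3.58.1 (R 4.3.3). The model held 6 group means over all 16 arrays and a term for the pair in the 6 adult arrays compared here. Empirical Bayes variances were used (8 residual and 1.19 prior degrees of freedom), with no filter, and p was adjusted by Benjamini-Hochberg. Every adjusted p in the text is from limma. Replicate numbers in the titles gave the pairs: deviations from the group means correlated by 0.449, 0.445 and 0.362 for equal numbers and by -0.407 to 0.005 for unequal ones. A single symbol was listed for 20826 Affy_IDs, several for 436 and none for 9780, and 20758 were matched to the current rat reference with 0 symbols changed.

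Lists of 904 genes (789 measured) used the Affy_ID of a gene with the highest mean. They were written from general knowledge, and members and lists were chosen with earlier results of these data known. Genes were named mainly by rule. The rule took the 25 largest rises and falls that passed with 1 symbol and the same sign in 3 pairs. In each list it took up to 10 passing members and the 3 others with the highest level. It also took the genes the study measured by PCR and the 10 passing genes with the widest range between pairs. Some genes outside the rule were named after their values had been seen. Fold changes from levels near background are not exact. Alternatives were other uses of the pair, fewer arrays, a trend or robust prior, array weights, a filter, quantile normalization and leaving out each pair and array. Figures used Python 3.11.15 with matplotlib 3.10.9.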

Additional observations from a re-analysis of the deposited data

Results flagged for a closer look

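For 8 Affy_IDs the difference between the injured and contralateral sides differed between adult and young rats (adjusted p of the adult minus young difference, limma). The larger side difference was in adults for Serpina3n (adult minus young 7.16, adjusted p = 7.99e-06), Ms4a6a (3.08, adjusted p = 0.00986), Serpinb2 (4.15, adjusted p = 0.0206), Hamp (5.12, adjusted p = 0.0443) and Cxcl13 (3.64, adjusted p = 0.0443). In these 5 genes the 4 young arrays had 1.75 to 2.67, near background, on both sides. The larger side difference was in young rats for the mitotic kinase Ttk (-1.08, adjusted p = 0.0206), the Wnt effector Tcf7l2 (-0.74, adjusted p = 0.0206) and the collagen chain Col11a2 (-2.38, adjusted p = 0.0443). Ttk had 3.72 and 3.66 in the injured and 2.64 and 2.78 in the contralateral young arrays, and Tcf7l2 3.44 and 3.44 against 2.72 and 2.79. Both thus stayed near background. Col11a2 had 5.01 and 5.53 in the injured and 3.14 and 2.65 in the contralateral young arrays, and 2.37 to 2.64 in the 6 adult arrays. Young Ipsilateral replicate 2 held central nervous tissue genes, with Mobp at 14.13 and Aqp4 at 13.33, and leaving it out left 1 young injured array. Hamp (5.12, adjusted p = 0.0557) and Cxcl13 (3.68, adjusted p = 0.0528) then missed the threshold with differences of nearly the same size. The young groups had 2 arrays a side, of pups operated at 10 days of age.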

How the results depend on the processing

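The number of passing Affy_IDs depended on how the pairs and the other arrays entered the fit. Without the replicate block, 321 passed, 286 higher and 35 lower (89.1% higher, against 78.8%), and 246 of the 311 were kept. With the replicate block over all groups, 200 passed with 26 lower, and 4 differed between ages. The 9 adult arrays alone gave 123 falls, the 6 arrays of the 2 sides with the pair 376 rises, and the same 6 without it 380, the last chosen after seeing the data. With Young Ipsilateral replicate 2 left out, 559 passed with 221 lower (60.5% higher), 84 list members passed instead of 54, and 41 Affy_IDs differed between ages instead of 8. Array weights gave 2556 calls, 1460 higher and 1096 lower (57.1% higher), with 190 list members. The robust prior, array weights and quantile normalization each gave 5 Affy_IDs that differed between ages. The filter on low values, which tested 18540, gave 82 list members. A threshold of 0.5 in every pair in place of 1 gave 978 rises and 471 falls.

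Leaving out each pair or other array in turn gave 18 to 559 calls, 15 to 338 rises, 3 to 221 falls and 9 to 84 list members. The lowest were without pair 2, the highest without either Young Ipsilateral array. Without Young Sham replicate 1, 172 passed, while 177 did without pair 1 and 47 without pair 3. Falls past 1 in every remaining pair numbered 58 to 169. Nefm, at -0.04, ranged from -0.085 to 0.025, turning in sign without pair 2. Of 150 genes followed, 90 passed, and 38, 10 and 10 of these still did without pair 1, 2 or 3. Serpina3n, Tnfaip6 and Ms4a6a passed in every setting run. No other of the 150 changed sign. The cause of these shifts was not tested.

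Values near 2 lie at background, which limits the size of rises and hides falls of dim genes. With pools of tissue and 3 pairs, a gene that did not pass was not shown to be unchanged.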
